A study of Mus musculus with 4 samples.

Results

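The genes described here are the translation initiation factor genes of the mouse, taken as the protein-coding genes of the GENCODE M21 annotation of mm10 whose symbol begins with Eif1 to Eif6. They number 55 of 21938 protein-coding genes, and they include the 4 eIF2-alpha kinase genes (Eif2ak1 to Eif2ak4) and 4 genes for regulators of eIF4E (Eif4ebp1 to Eif4ebp3 and Eif4enif1). Initiation factors bring the ribosome, the initiator transfer RNA and a messenger RNA together at the start codon. eIF4E binds the cap of the messenger within the eIF4F complex, eIF3 holds the small ribosomal subunit, and eIF2 delivers the initiator transfer RNA and is recharged by its exchange factor eIF2B. In neurons as in other cells, kinases that phosphorylate the alpha subunit of eIF2 (the integrated stress response) and binding proteins that sequester eIF4E (controlled by mTOR) are the main brakes on this step.

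The data are an H3K9ac ChIP-seq comparison in HT22 cells, an immortalised mouse hippocampal line, grown for 48 h with choline chloride at 5 µM in the control and at 70 µM in the supplemented medium. H3K9ac is acetylation of lysine 9 of histone H3, a mark of active promoters. The series has 4 libraries, 2 of input DNA and 2 of ChIP DNA, all from the same cell line, with no replicate of a choline level and with labels that do not tie a library to a level. The one list used holds 45855 regions that the authors called different between the levels, of which 45495 (99.2%) are unique to condition 2 and 360 to condition 1. From the order of the numbers in the region names, condition 1 was read as 5 µM and condition 2 as 70 µM, and every direction given here rests on that reading. The name of the deposited file speaks of input against H3K9ac and not of choline, so that the 2 conditions are choline levels was taken from the region names and the series' design text. Regions common to both levels are not in the list, so a gene without a region may carry H3K9ac equally at both. A gene was called marked when 1 bp or more of a region fell within 1000 bp of any annotated transcript start of that gene. Such a region is called a start-site region. Unless said otherwise, the regions and scores given for a gene are those of its start-site regions. Each region has 1 score, the value in the authors' deposited table, called the authors' score here. Its median over the whole list was 6.64 and its range 3.08 to 44.5. No p-value can be given for a difference between the levels, because no spread between cultures was measured. Choline level and properties of the library, such as its depth, cannot be told apart. The labelled cell type was set against marker genes. Of 10 neuronal genes 4 were marked and of 6 fibroblast genes 6, with 2 of 5 for astrocytes, 1 of 5 for oligodendrocytes and 1 of 5 for microglia, where 39.5% of all protein-coding genes were marked. The neuronal and astrocyte shares are thus near that of all genes, and these counts do not tell the cell type. The marked neuronal genes were Rbfox3, Syn1, Dlg4 and Eno2. Map2, Tubb3, Snap25, Syp, Camk2a and Nefl had no start-site region, which is not a measure of their expression.

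Sequences are shown for 2 sets of regions around which the description turns. The first set is the 3 regions near starts of Eif genes assigned to 5 µM choline, against 76 near starts at 70 µM. They are given 5′ to 3′ on the strand of the gene, from the RefSeq GRCm38.p6 sequence, which is the build mm10, without bases annotated as untranslated exon. Capitals mark matches to any of 8 motifs, which are named below. Of Eif2s1 the 47 bases before the start are shown (chr12:78861772-78861818, plus strand), of Eif3d the 108 bases before the start (chr15:77970814-77970921, minus strand), and of Eif2b3 the whole region, in intron 1 (chr4:117020028-117020274, plus strand).
Eif2s1: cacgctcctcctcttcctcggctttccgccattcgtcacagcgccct
Eif3d: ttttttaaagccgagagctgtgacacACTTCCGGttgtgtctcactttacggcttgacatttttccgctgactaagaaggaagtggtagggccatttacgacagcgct
Eif2b3: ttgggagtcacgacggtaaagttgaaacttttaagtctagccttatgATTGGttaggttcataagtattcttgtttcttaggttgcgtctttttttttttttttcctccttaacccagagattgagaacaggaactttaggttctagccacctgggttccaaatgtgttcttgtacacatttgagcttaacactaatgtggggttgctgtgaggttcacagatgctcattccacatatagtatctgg
The capitals in Eif3d are the ETS motif CCGGAAGT read on the other strand, and those in Eif2b3 are the CCAAT box on the other strand.

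The second set is the highest-scoring 70 µM start-site region of Eif4ebp1 (chr8:27263956-27264106, plus strand), Eif2b5 (chr16:20506257-20506405, plus strand), Eif6 (chr2:155821701-155821879, minus strand), Eif2b2 (chr12:85219124-85219323, plus strand) and the kinase gene Eif2ak3 (chr6:70877849-70878003, plus strand).
Eif4ebp1: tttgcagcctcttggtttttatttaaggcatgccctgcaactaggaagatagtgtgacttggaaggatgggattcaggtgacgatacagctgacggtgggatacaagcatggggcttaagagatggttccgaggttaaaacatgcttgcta
Eif2b5: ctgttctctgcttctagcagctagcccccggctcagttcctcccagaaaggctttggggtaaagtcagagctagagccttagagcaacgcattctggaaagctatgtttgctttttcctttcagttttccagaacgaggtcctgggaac
Eif6: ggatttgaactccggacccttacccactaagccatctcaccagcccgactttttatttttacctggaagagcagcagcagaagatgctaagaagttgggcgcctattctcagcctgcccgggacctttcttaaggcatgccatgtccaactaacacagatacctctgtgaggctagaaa
Eif2b2: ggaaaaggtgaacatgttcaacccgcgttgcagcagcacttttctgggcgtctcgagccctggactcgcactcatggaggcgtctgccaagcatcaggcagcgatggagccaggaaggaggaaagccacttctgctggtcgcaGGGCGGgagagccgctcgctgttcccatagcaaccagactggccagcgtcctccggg
Eif2ak3: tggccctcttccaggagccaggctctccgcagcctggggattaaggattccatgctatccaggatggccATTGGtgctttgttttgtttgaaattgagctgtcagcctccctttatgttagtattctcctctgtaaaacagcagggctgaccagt
Of these, Eif2b2 holds 1 GC box (GGGCGG) and Eif2ak3 1 CCAAT box, and the other 3 hold none of the 8 motifs.

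Most initiation factor genes had a differential H3K9ac region near a start. Marked genes numbered 43 of 55 (78.2%), with an exact 95% interval of 65.0 to 88.2%, and the same rule called 39.5% of all protein-coding genes. Of the 21883 other protein-coding genes, 8622 were marked (39.4%, exact 95% interval 38.8 to 40.1). All 43 had a 70 µM region (the same rule called 39.2% of all protein-coding genes). Only 3 had a 5 µM region, namely Eif2s1, Eif2b3 and Eif3d (5.45%, exact 95% interval 1.14 to 15.1, against 0.88% of all protein-coding genes). The intervals cover counting over genes and say nothing of cultures. The 12 genes without a start-site region were Eif1a, Eif2s3x, Eif2s3y, Eif2ak1, Eif3j2, Eif3m, Eif4b, Eif4e1b, Eif4e3, Eif4ebp2, Eif4ebp3 and Eif5a2.

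**Figure D1:**
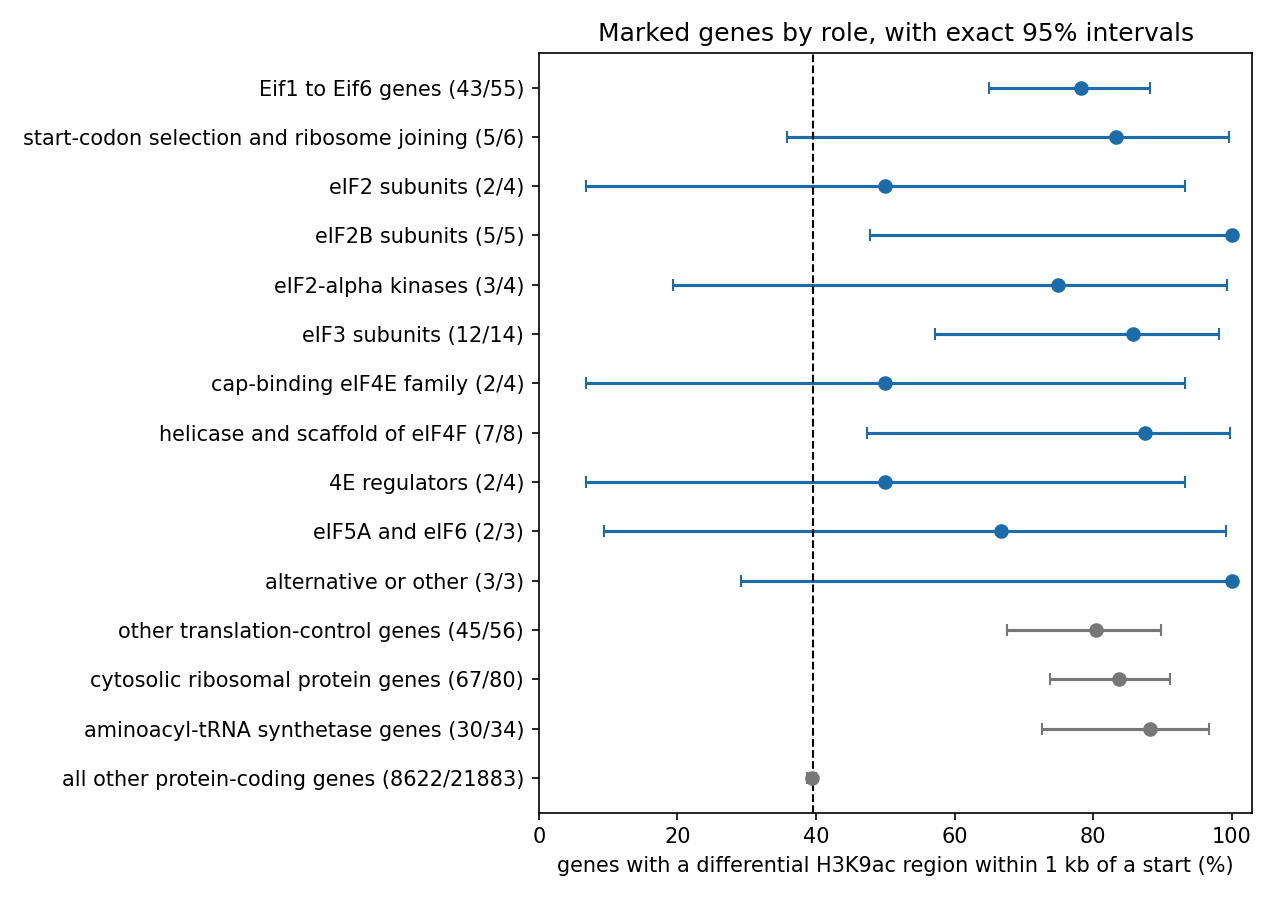
Share of genes with a differential H3K9ac region within 1 kb of an annotated start (x axis, percent), for all 55 Eif genes, for their role groups (blue) and for other gene groups (grey). Points are shares, bars exact 95% binomial intervals over genes, figures in brackets marked over all genes, and the dashed line is the 39.5% of all protein-coding genes. All role groups lie above the line, but the intervals of 7 of the 10 cross it.

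Related gene groups stood at a similar level. Of 56 other genes of translation control, 45 were marked (80.4%, exact 95% interval 67.6 to 89.8), of 80 cytosolic ribosomal protein genes 67 (83.8%, exact 95% interval 73.8 to 91.1) and of 34 aminoacyl-tRNA synthetase genes 30 (88.2%, exact 95% interval 72.5 to 96.7). The interval of each overlaps that of the Eif genes, and the differences were not tested.

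The proteins that select the start codon and join the ribosomal subunits had 5 of 6 genes marked. Eif5, the GTPase-activating protein of eIF2, had the highest authors' score of this group (8.82), at chr12:111539950-111540097. That region lay 380.5 bp downstream of the nearest annotated start, in an exon of the non-coding transcript Eif5-204. Eif1b, a paralog of the scanning factor gene Eif1, had 2 regions (6.98 and 4.57), of which the stronger, chr9:120493034-120493200, lay in intron 1. Eif1 itself had 1 region 547 bp upstream of its start (chr11:100319201-100319475, score 5.62), with no CpG in its 275 bp. Eif5b, the subunit-joining GTPase gene, scored 4.96, and that region also lies at the start of Txndc9, which is nearer. Of the 2 eIF1A genes, X-linked Eif1ax had a region in intron 1 (3.55), and Eif1a on chromosome 18 had none within its window, the nearest midpoint being 2707 bp away.

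Among the eIF2 subunits, Eif2s1 for the alpha subunit, which the stress kinases phosphorylate, had both directions at one promoter. Its 5 µM region, chr12:78861772-78861915, was centred 24.5 bp downstream of the 5′-most start, in untranslated exon 1, and scored 8.51. It lay between 70 µM regions centred 838 bp upstream (3.73, nearer to the start of Atp6v1d) and, downstream of a later start, 111 bp (4.91) and 659.5 bp (4.59) from that start. The 5 µM region had the highest authors' score of the 4, but 5 µM regions score higher over the whole list, with a median of 10.8 against 6.63 for 70 µM, and those of Eif2s1 and Eif3d (9.07) lie under that median. Eif2s2, for the beta subunit, had 1 broad 70 µM region of 553 bp (chr2:154892134-154892686, score 5.70, with 41 CpG). The gamma subunit genes Eif2s3x and Eif2s3y, on X and Y, were unmarked. Of the other protein-coding genes on these chromosomes 21.6% on X and 1.10% on Y were marked.

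All 5 eIF2B genes were marked, and this group had the highest median, 12.6, of the authors' score of each gene's strongest region, against 5.62 over the 43 marked Eif genes. The eIF2B genes had a median of 7 annotated starts and 5515 bp of window, against 4 and 4103 bp over all Eif genes. Of them 80% had 2 or more start-site regions, against 51.2% of marked Eif genes. The part of these properties in the ranking was not tested. eIF2B is the exchange factor that reloads eIF2 with GTP, and mutations in its genes cause a leukoencephalopathy. Eif2b3, for the gamma subunit of the catalytic part, had the highest score at any Eif start site, 18.4, and this was the 5 µM region chr4:117020028-117020274, centred 743 bp downstream of the start of Eif2b3-202 in intron 1. It also had 3 70 µM start-site regions, with scores of 3.40, 14.98 and 5.52. The first of them was centred 123 bp downstream of that start, and the other 2 lay near starts far inside the gene. Eif2b5, for the catalytic epsilon subunit, had 2 start-site regions, both near starts inside the gene, and none in the window of its 5′-most start. They lay in intron 11 (chr16:20506257-20506405, 14.3) and in intron 8 (chr16:20505005-20505211, 9.25). In the second of these, 40.9% of the 32-base words occurred once in the genome, the lowest share of the 79 regions. A stronger 70 µM region of Eif2b5, in intron 1 (chr16:20499925-20500128, 15.9), lay outside the windows, 1209.5 bp from the nearest start. Eif2b2 scored 12.6, 257.5 bp upstream of its start. The regulatory subunit gene Eif2b1 had regions of 4.92 and 4.39 that it shares with Gtf2h3, whose start is nearer. Eif2b4 had 1 of 6.88 shared with Snx17, whose start is nearer, and 1 of 4.82 in coding exon 6.

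**Figure D2:**
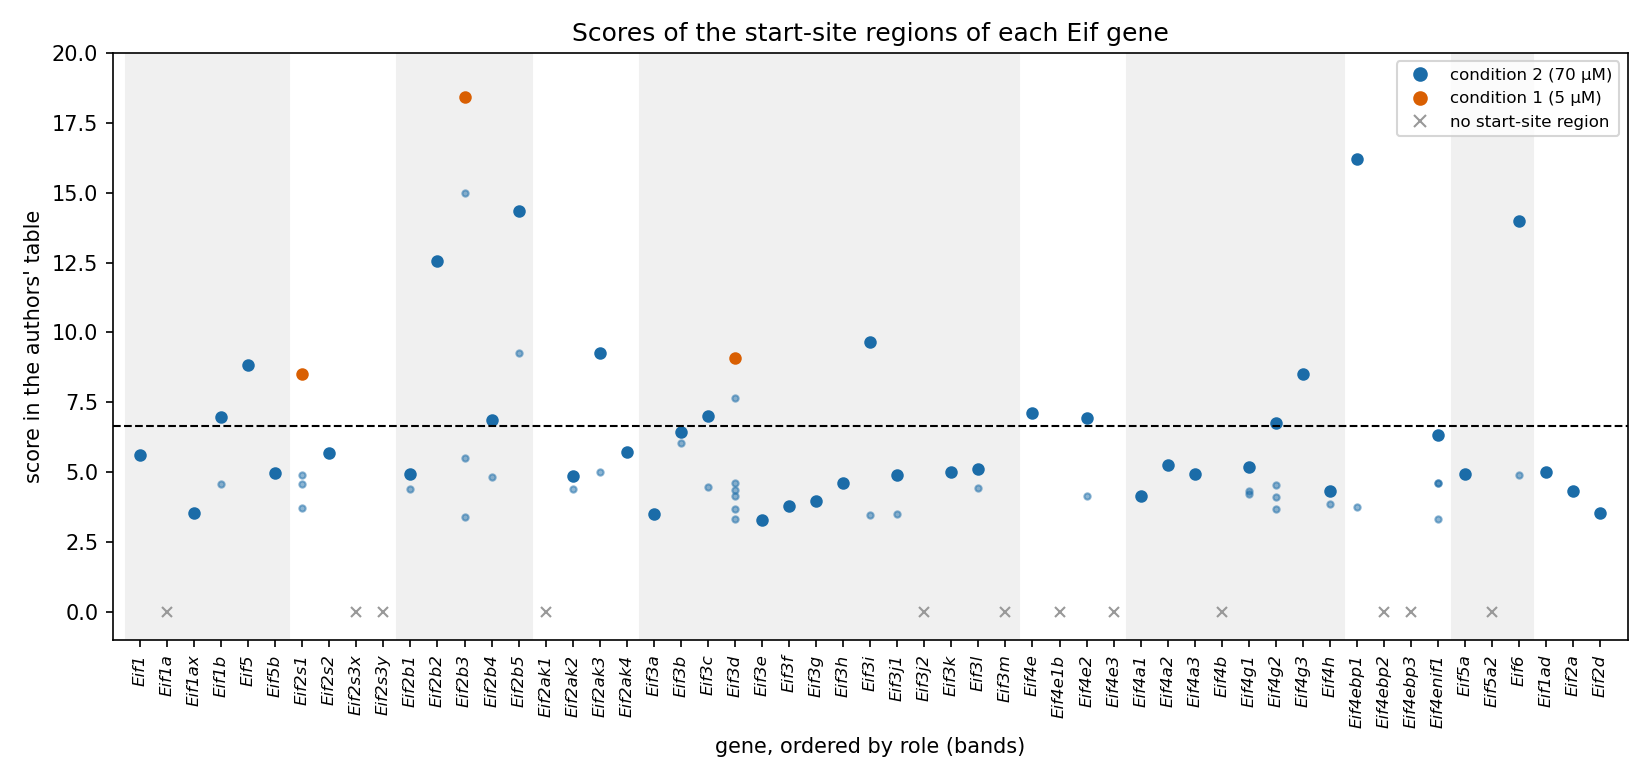
Authors' score (y axis) of every start-site region of each Eif gene (x axis, ordered by role, with bands for role groups). Large points are a gene's strongest region and small points its others, blue is 70 µM, orange is 5 µM, crosses at 0 are genes with no start-site region and not a score of 0, and the dashed line is the median of the whole list, 6.64. Eif2b3 (18.4), Eif4ebp1 (16.2), Eif2b5 (14.3), Eif6 (14.0) and Eif2b2 (12.6) stand above 10, and 26 of the 43 marked genes lie under the line.

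The eIF2-alpha kinases each sense a different stress, and 3 of their 4 genes were marked, all by 70 µM regions. The exact 95% interval, 19.4 to 99.4%, holds the 39.5% of all protein-coding genes. For 70 µM regions alone that share was 39.2%. Eif2ak3 encodes PERK, the kinase of endoplasmic reticulum stress. It had a region in the untranslated part of exon 1, centred 129.5 bp downstream of a start (chr6:70844578-70844793, score 5.01, with 36 CpG in 216 bp), and a stronger region in intron 3 near an internal start (9.26). Eif2ak4 encodes GCN2, the sensor of amino acid shortage, and had 1 start-site region, chr2:118389111-118389319, overlapping a start and centred in intron 1 (5.73). A stronger 70 µM region of Eif2ak4, in intron 16 (chr2:118440504-118440724, 13.9), lay outside the windows. Eif2ak2 encodes PKR, the kinase activated by double-stranded RNA. Its regions were chr17:78882543-78882707, centred 52 bp upstream of the start (4.39), and chr17:78881809-78881985 in intron 1 (4.86). Eif2ak1 encodes HRI, which haem inhibits, and was unmarked. The nearest region to any of its starts was 86232.5 bp away. Factors without the kinases, the eIF4E regulators, Eif1ad, Eif5a, Eif5a2 and Eif6 had 35 of 43 genes marked (81.4%). The difference between these and the 3 of 4 kinases was not tested.

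eIF3, the largest initiation factor, had 12 of its 14 genes marked, mostly with low scores. The median of the strongest region was 4.96. Eif3d, whose product can bind the cap of some messengers, had the most start-site regions of any Eif gene, 7. Its 5 µM region, chr15:77970735-77970921 (9.07, 187 bp, 16 CpG), was centred 15 bp upstream of the 5′-most start. Around the same promoter 70 µM regions were centred 449.5 bp (4.15) and 961 bp (3.33) upstream, and 276 bp (4.37) and 890.5 bp (4.61) downstream of a neighbouring start, Eif3d-207. The other 2 were at an internal start (7.65 and 3.69). As at Eif2s1, the 5 µM region sat on the start, and the 70 µM regions lay on both sides of it within 1000 bp. Eif3i had the highest score of the group, 9.67, at chr4:129599745-129599944, 754.5 bp downstream of a start, and a weaker one (3.46) nearer to the start of Tmem234. Eif3c (7.01, chr7:126566470-126566656) was marked 152 bp upstream of its start. Eif3b had a region of 380 bp over coding exon 1 with 49 CpG (6.45). Eif3a, Eif3e, Eif3f, Eif3g, Eif3h, Eif3j1, Eif3k and Eif3l had strongest scores from 3.28 (Eif3e) to 5.13 (Eif3l). Eif3m was unmarked, with the nearest region 120690 bp away. Eif3j2, a near copy of Eif3j1 on chromosome 18, was unmarked too. Only 60.2% of the 32-base words of its window occurred once in the genome, the lowest share of the 55 genes. Marked genes also had low shares (71.2% for Eif1), the medians were 96.6% for marked and 94.6% for unmarked Eif genes, and the part of unique sequence in the calls was not tested.

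**Figure D3:**
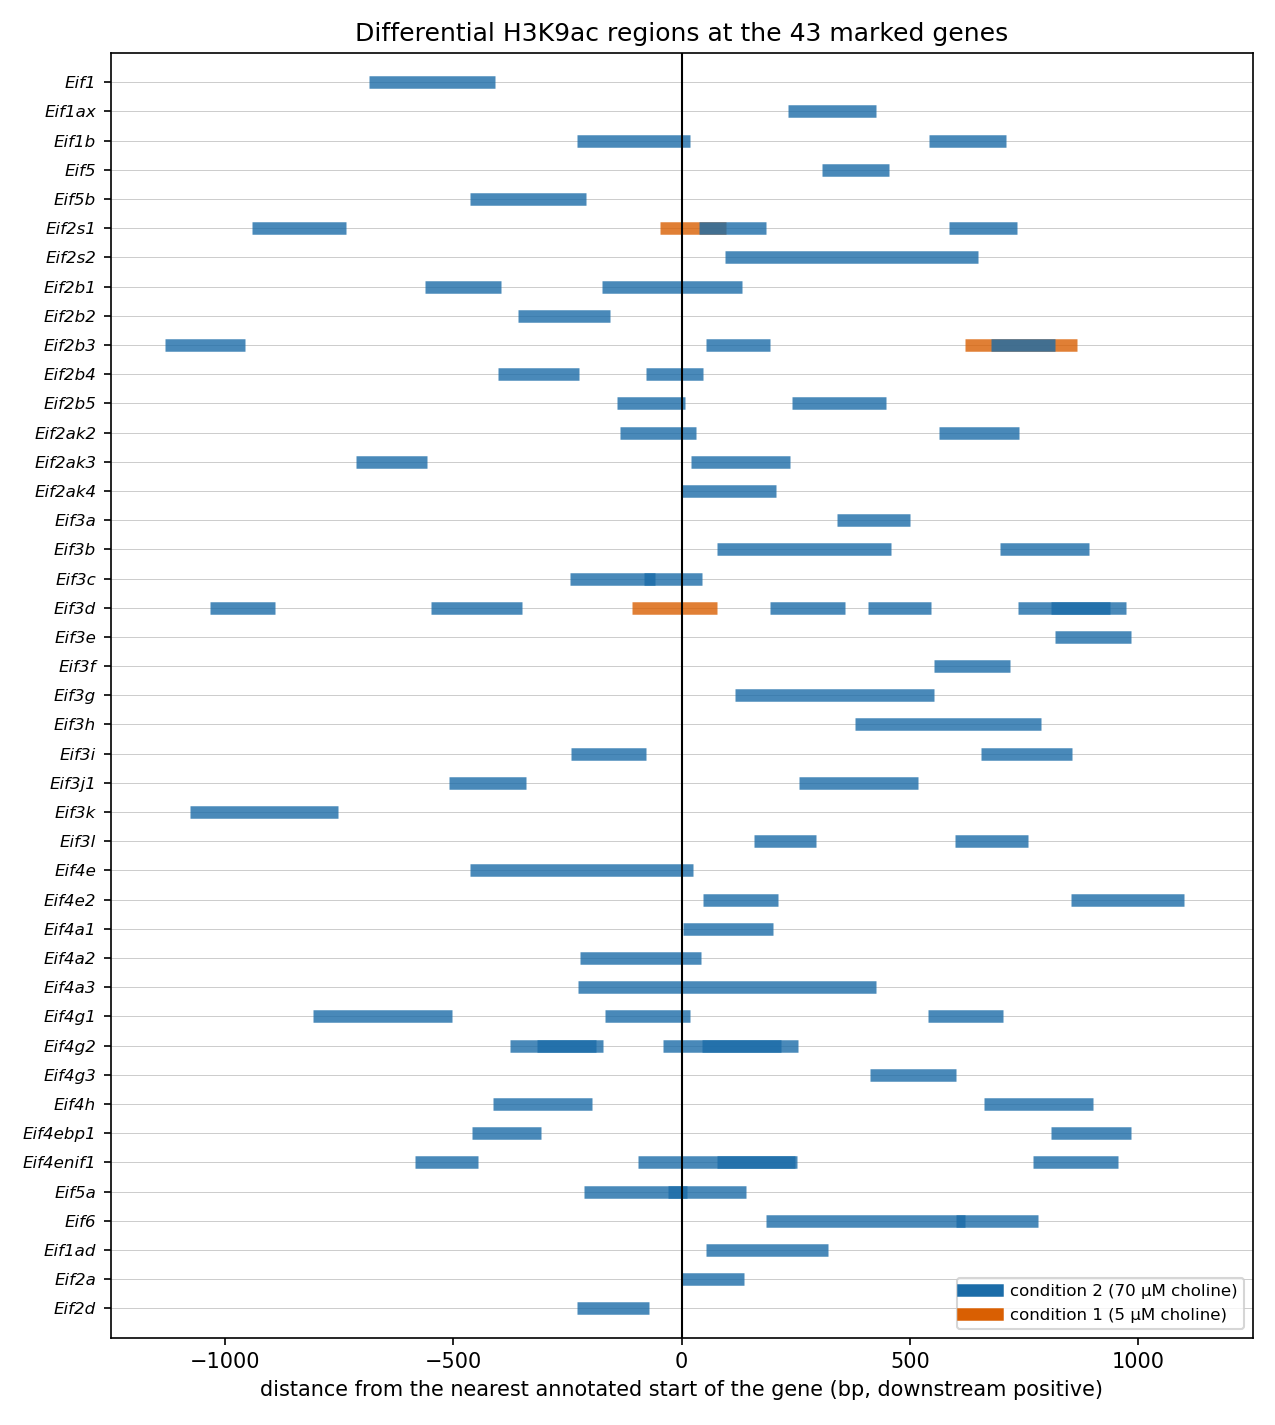
Position of the start-site regions of the 43 marked Eif genes relative to the nearest annotated start of the gene (x axis, bp, downstream positive), as bars of the width of the region, in blue for 70 µM and orange for 5 µM. Each region is drawn against its own nearest start, so that regions at different starts of a gene share a row and can overlap there, as at Eif2b3. The 5 µM regions of Eif2s1 and Eif3d cover the start, and that of Eif2b3 is centred 743 bp downstream.

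Of the cap-binding family, 2 of 4 genes were marked. Eif4e, the cap-binding subunit of eIF4F, had 1 region of 488 bp ending just past its start (chr3:138525716-138526203, score 7.13). Eif4e2, whose product competes for the cap and represses translation, had regions of 6.95 (chr1:87215140-87215386, intron 1) and 4.16. Eif4e3 and the germline gene Eif4e1b had none. The helicases and scaffolds of eIF4F had 7 of 8 genes marked. Eif4g3, a scaffold gene, scored highest (8.52, chr4:137993925-137994113, in a coding exon of Eif4g3-215), then Eif4g2, a scaffold without the eIF4E site (6.78, chr7:111082383-111082571), and the helicase gene Eif4a2 (5.27, chr16:23108359-23108624). Eif4g2 had 4 regions and Eif4g1 3, all at 70 µM. Eif4a3, of the exon junction complex, had the widest start-site region of any Eif gene, 653 bp with 82 CpG over the start (4.93). The helicase cofactor gene Eif4h had regions of 4.32 and 3.86, and Eif4a1 1 of 4.13. Eif4b, the other cofactor gene, was unmarked at its starts.

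The regulators of eIF4E were split. Eif4ebp1, the mTOR target that sequesters eIF4E, had the strongest 70 µM region of any Eif start site (16.2, chr8:27263956-27264106) and 1 of 3.75. Both lie in intron 1, near the start of Eif4ebp1-202, and the gene's 5′-most start had none. With the 5′-most starts alone, or with the starts of protein-coding transcripts alone, Eif4ebp1 was unmarked. Eif4enif1, for the eIF4E transporter protein, had 4 regions, the strongest over its first exon (6.35, chr11:3202298-3202645, 45 CpG in 348 bp). Eif4ebp2, the main form in brain, and Eif4ebp3 had no region within the window. Their nearest regions lay just outside, with midpoints 1418.5 bp (4.01) and 1143.5 bp (17.3) from the start. Eif4b likewise had its nearest at 1205 bp (4.01). The 4.01 of Eif4ebp2 and Eif4b is the second commonest exact score of the list, held by 1021 regions. Just inside the window were Eif3k, marked by 1 region (5.01) centred 915.5 bp upstream of its start and nearer to that of Map4k1, and Eif3e, with 1 region 901.5 bp downstream. With windows of 2500 bp all 4 regulators were marked, against 46.5% of all protein-coding genes.

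Of the genes for eIF5A and eIF6, Eif6, which keeps the large ribosomal subunit from joining early, had a region in intron 5 near an internal start (14.0, chr2:155821701-155821879) and 1 of 4.90 nearer its first starts. Eif5a, for the hypusine-bearing factor of elongation, had 2 regions of nearly equal score, chr11:69920618-69920844 (4.94) and chr11:69920924-69921093 (4.93), with 72.7% and 78.8% G and C. Its paralog Eif5a2 was unmarked, the nearest region being 288165.5 bp away. The alternative or related factors Eif1ad (4.99), Eif2a (4.34) and Eif2d (3.54) had 1 region each. The region of Eif1ad is nearer to the start of Banf1.

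The scores of Eif regions differed with the kind of start. At the 5′-most start of a gene, 60 regions had a median authors' score of 4.74 (quartiles 4.15 and 5.70). Of these 11 (18.3%) were at or above the median of the list. The 19 regions near other starts only had a median of 5.52 (quartiles 4.46 and 9.25), with 9 (47.4%) at or above that median. Other protein-coding genes had the same order, with medians of 4.81 over 10040 and 5.60 over 4694 gene-region pairs and shares of 18.6% and 39.99%. The median width was 187 bp for the 79 Eif regions and 184 bp for start-site regions of other genes. Of marked Eif genes 51.2% had 2 or more regions, and of other marked genes 45.8%. None of the 79 Eif regions had either of the 2 commonest exact scores of the list, which 2.11% of start-site regions of other genes had. Downstream of the nearest start lay 59.5% of the Eif regions and 58.7% of those of other genes.

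Start-site windows of Eif genes were richer in CpG than those of other genes, with medians of 29.5 and 21.3 CpG per kb. Windows were of similar merged length (4103 and 4002 bp). Among other genes the share of marked genes was 5.67% in the lowest quartile of CpG and 54.3% in the highest, and 16.9% and 62.8% in those of length. Within the top quartile of CpG, 16 of 22 Eif genes were marked (72.7%, exact 95% interval 49.8 to 89.3), against 54.3% of 5463 other genes, which lies inside that interval. In the third quartile 18 of 20 were marked (exact 95% interval 68.3 to 98.8%), against 56.8%. Among genes above the median in both CpG and length the counts were 22 of 23 (95.7%, 78.1 to 99.9) and 66.1% of other genes. With high CpG and short windows they were 12 of 19 (63.2%, 38.4 to 83.7) and 45.7%. At or under the median of CpG, 9 of 13 Eif genes were marked (69.2%, 38.6 to 90.9), against 23.3% of other genes. Unmarked Eif genes had short windows, with a median of 2091.5 bp against 5256 bp in the marked, and with 9 of 12 at or under 2500 bp against 9 of 43. In the lowest quartile of length, 1 of 6 Eif genes was marked (16.7%), near the 16.9% of other genes. The part of window length and CpG in the share of 78.2% was not tested.

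The count of marked Eif genes was also taken under other rules, each beside the share of all protein-coding genes under that rule. With windows of 500 bp it was 40 (72.7%, against 32.5%), and Eif3e, Eif3f and Eif3k were lost. With windows of 2500 bp it was 46 (83.6%, against 46.5%), Eif4b, Eif4ebp2 and Eif4ebp3 being added. By the midpoint of the region it was 43 (against 38.6%), and without the 2 commonest scores again 43 (against 38.9%). With the 5′-most start of each gene alone it was 39 (70.9%, against 32.5%), without Eif5, Eif2b5, Eif4g1 and Eif4ebp1. With the starts of protein-coding transcripts alone it was 42 (76.4%, against 36.9%), without Eif4ebp1. Where a region counted for its nearest gene only it was 39 (70.9%, against 37.0%), without Eif5b, Eif2b1, Eif3k and Eif1ad. On autosomes it was 42 of 52 (80.8%, against 40.6%), and without chromosomes 3, 5, 11 and 15 28 of 37 (75.7%, against 36.8%). With regions at or above the median score it was 17 (30.9%, against 14.6%), so that 26 of the 43 marked genes rested on regions of lower score.

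**Figure D4:**
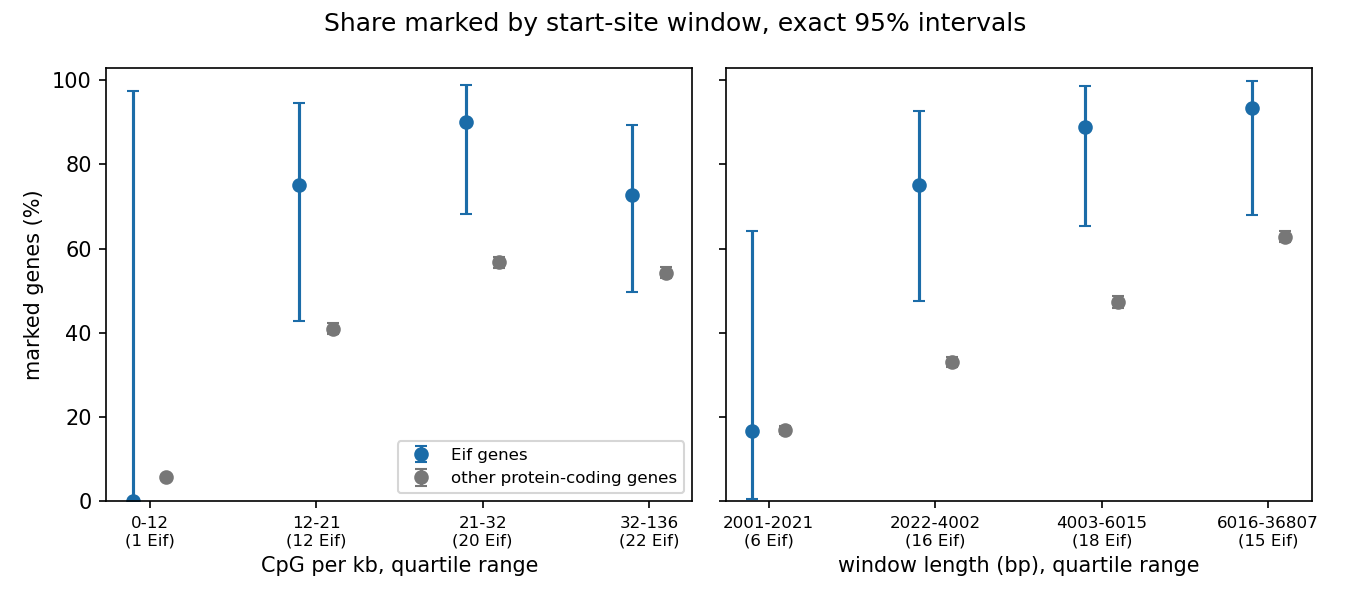
Share of marked genes (y axis, percent) for Eif genes (blue) and other protein-coding genes (grey) by quartile of CpG per kb (left) and of merged length in bp (right) of the start-site windows. Bars are exact 95% intervals, and the number of Eif genes per quartile is given under each. Eif genes lie above other genes in 6 of the 8 quartiles, and at or below them in the lowest quartile of each.

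Most genes with a 5 µM region at a start also had a 70 µM one. Of 193 protein-coding genes with a 5 µM region at a start, the 3 Eif genes all had a 70 µM region too, as had 127 of the 190 others (66.8%). Whether or not they had a 5 µM region, 78.2% of Eif genes and 39.2% of all protein-coding genes had a 70 µM one. A 5 µM region with 70 µM regions within 1000 bp on both sides was found at Eif2s1 and Eif3d and at 11 of the 190 other genes (5.79%). Within 100 bp of the nearest start were centred 2 of the 3 5 µM regions and 12 of 76 70 µM regions of Eif genes, against 24.2% and 16.2% in other genes. These counts of 2 and 3 are too small for more than a description, and each level has at most 1 ChIP library.

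Promoter sequence was compared in the RefSeq windows from 250 bases before to 50 after a start, which matched 43 of the 55 Eif genes and 16479 other protein-coding genes. Eif1a, Eif2b3, Eif3e, Eif3h, Eif3i, Eif3j2, Eif4e1b, Eif4e3, Eif4g2, Eif4ebp1, Eif4ebp3 and Eif6 were not matched. The motifs, searched on both strands with overlaps kept, were the E-box CACGTG, the cAMP response element TGACGTCA, the ETS motif CCGGAAGT, the NRF1 motif, the GC box GGGCGG, the CCAAT box CCAAT, the composite of ATF4 and C/EBP TGATGNAAT, and the YY1 motif AAGATGGC. The E-box, which Myc proteins bind, was in 10 Eif promoters (23.3%, exact 95% interval 11.8 to 38.6) and in 9.14% of other genes. Holders of the E-box were Eif1b, Eif3a, Eif3f, Eif3k, Eif4a1, Eif4e, Eif4g1, Eif4h, Eif5a and Eif5a2. The ETS motif was in 8 (18.6%, 8.39 to 33.4) against 5.90%, the GC box in 33 (76.7%, 61.4 to 88.2) against 51.0% and the YY1 motif in 5 (11.6%, 3.89 to 25.1) against 3.62%. Holders of the ETS motif were Eif2ak1, Eif2b2, Eif2b4, Eif3d, Eif3l, Eif4e2, Eif5a and Eif5a2. The CCAAT box was in 15 (34.9%) against 42.1%, and NRF1 in 1 (2.33%) against 1.52%. The composite of ATF4 and C/EBP and the cAMP response element were in none, against 0.935% and 2.65% of other genes.

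Within the 79 differential regions themselves, there were 1.81 matches per kb to the GC box and 1.11 to the CCAAT box, against 1.69 and 1.10 in start-site regions of other genes. The E-box was in 2 regions, those of Eif5 and Eif5a (2.53%, against 3.57% of other start-site regions). The ETS motif was in 3, at Eif2b4, Eif3d and Eif5a (3.80%, against 1.14% of other start-site regions). That of Eif2b4 is nearer to the start of Snx17. The ETS regions of Eif2b4 (chr5:31193656-31193831, minus strand) and Eif5a (chr11:69920631-69920800, minus strand, the part outside untranslated exons) read as follows, with motif matches in capitals.
Eif2b4: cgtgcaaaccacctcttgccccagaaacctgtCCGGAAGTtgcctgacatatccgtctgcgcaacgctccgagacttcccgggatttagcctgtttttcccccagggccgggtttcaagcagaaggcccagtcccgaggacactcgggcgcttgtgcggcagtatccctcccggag
Eif5a: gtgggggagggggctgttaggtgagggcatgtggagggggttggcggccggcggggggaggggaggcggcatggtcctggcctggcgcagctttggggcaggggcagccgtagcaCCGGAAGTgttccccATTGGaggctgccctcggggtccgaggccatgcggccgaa
In Eif5a the capitals are an ETS motif and a CCAAT box on the other strand. A match is a description of the sequence and not a bound site.

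Other genes of translation control were taken from a list of names that gave 56 genes, of which 45 were marked (80.4%, against 39.5% of all protein-coding genes). Of 12 genes of the integrated stress response 9 were marked, led by Gcn1l1, the GCN2 activator (20.2), and Ppp1r15b, a subunit of the eIF2-alpha phosphatase (7.57). Atf4, the factor translated when eIF2 is phosphorylated, and both annotated genes named Ddit3 were not. Of 14 genes of the mTOR arm 12 were marked, led by Mtor (20.1) and its inhibitor gene Tsc2 (20.1), but not Larp1. Of 11 cap and poly(A) partners 9 were marked, led by Angel1 (18.7) and the helicase gene Dhx29 (12.1), but not Cyfip2. Of 12 genes of elongation and termination 10 were marked, led by Eef1d (21.2) and Eef1a1 (12.3), but not Eef1b2. Of 7 initiation helpers 5 were marked, with low scores led by Ltv1 (4.84) and Mcts2 (4.81), and the ribosome recycling gene Abce1 was not. All scores named here are of 70 µM regions, and 1 of the 45 genes, Paip2, had a 5 µM region alone. The median of the strongest region over the 45 genes was 5.86, against 5.62 for the Eif genes and 5.68 for all marked genes.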

How the data were processed

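HT22 cells in 2 choline levels gave 2 input and 2 H3K9ac ChIP libraries. The tools were CASAVA 1.8, Bowtie 1.0.0 and MACS2 (version not stated) with mm10, per the submitters' processing notes. Peak calling with input as background, then bdgdiff of MACS2 between the levels, is what the design text of the series records. Per the file headers, the deposited list holds regions unique to condition 1 or 2. Its score is the authors' value per region, in an unnamed column, and was used only to describe and rank regions within the list. For the scaling between libraries the sources used here give nothing, and the read depth is unknown. Replicate cultures are not in the design.

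Regions were set against GENCODE M21 starts and RefSeq GRCm38.p6, of the same build, on chromosomes 1 to 19, X and Y, with coordinates counted from 1. Distances run from region midpoints to the nearest start of the gene. Shares have exact (Clopper-Pearson) 95% intervals, made with scipy 1.17.1 in Python 3.11.15. Sequences were read with pyfaidx 0.9.0.4. No test between levels or lists was made. The marking and motif steps were tested on simulated data.

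Every Eif gene is accounted for. Positions are given for the strongest regions of up to 3 genes per role group, and for kinases, eIF4E regulators and genes with 5 µM regions. Of the other genes, the 2 strongest marked and the first unmarked by name were taken per sub-list. Other genes named were chosen after their values were seen. The members and lists were chosen with earlier results of these data known. Other settings were windows of 500 and 2500 bp, region midpoints, scores at or above the median, no commonest scores, each level alone, 5′-most starts, autosomes and factors alone. Protein-coding transcripts, nearest genes and 4 chromosomes left out were added after seeing the data.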

Additional observations from a re-analysis of the deposited data

How the results depend on the processing

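The share of marked Eif genes was above that of other genes under each of the 12 other settings run on both, by 4.59 percentage points with the 5 µM regions alone and by 16.3 to 40.4 points otherwise. Counting regions with a score of the list's median or more, it was 30.9% (17 of 55), against 14.6% of other genes and of all protein-coding genes. With the 5 µM regions alone it was 5.45%, against 0.868%. Other genes stood at 32.4% with windows of 500 bp, 46.4% with 2500 bp, 38.5% by midpoint, 38.8% without the 2 commonest scores, 32.4% with 5′-most starts, 40.5% on autosomes, 36.8% with protein-coding transcripts, 36.9% with nearest genes and 36.7% without chromosomes 3, 5, 11 and 15. Other translation-control genes stood at 57.1% with windows of 500 bp, 66.1% with 5′-most starts, 28.6% at or above the median score and 1.79% with 5 µM regions. At or above the median score, start-codon factors stood at 33.3%, eIF3 at 21.4%, helicases and scaffolds at 25% and alternative factors at 0%. With the 5 µM regions alone the kinases, 4E regulators, start-codon factors, cap-binding genes, helicases and scaffolds, eIF5A with eIF6 and alternative factors stood at 0%, eIF2 at 25%, eIF2B at 20% and eIF3 at 7.14%. With windows of 2500 bp the 4E regulators and the helicases and scaffolds stood at 100%, as did eIF2 subunits on autosomes, and without the 4 chromosomes the kinases, the helicases and scaffolds and eIF5A with eIF6. These groups hold 1 to 14 genes, and fewer regions or genes under a setting shift their shares by construction. Of 161 alternative values, 124 lay inside the interval of the reported value (for scores, between its quartiles) and 37 outside. The intervals of the small groups are wide, such as 6.76 to 93.2% for the eIF2 subunits, and some settings changed no Eif gene. These counts are therefore no measure of stability. The median strongest score over Eif genes was 8.82 with the higher-scoring regions alone. No paired analysis was possible because no column belongs to a library and the labels number no replicates. Depth is unknown, so an absent region is no sign that H3K9ac was alike at both levels.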

Other observations

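Outside the start-site windows, the bodies of 31 of the 55 Eif genes held 53 further regions (7995 of the 21883 other protein-coding genes had one), with a median authors' score of 7.47 (quartiles 4.58 and 14.2), against 4.91 for the 79 start-site regions. In other protein-coding genes the body regions had a median of 8.49. The highest score of any region in an Eif gene was 32.1, at Eif4g2 (chr7:111080484-111080685), a 70 µM region in an exon of the non-coding transcript Eif4g2-212, 1220.5 bp from the nearest start. Eif4b, unmarked at its starts, had 7 body regions, the most of any Eif gene, with scores from 3.60 to 12.7, among them 1 in intron 1 (chr15:102081376-102081550, 12.7) and 1 in coding exon 9 (chr15:102089916-102090093, 3.72). Eif2b3 and Eif3l had 4 each, and at Eif2b3 they reached 19.5 and 22.8. Eif4e3, also without a start-site region, held 1 body region, a 5 µM region in intron 4 (chr6:99636661-99636807, 16.7), 30037 bp from the start.

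By chromosome, the 3 Eif genes on chromosome 18 were unmarked, while 36.7% of its other genes were marked, and 5 of 5 on chromosome 11 and 4 of 5 on chromosome 15 were marked, where other genes reached 49.7% and 55.9%. Chromosomes 11 and 15 held 37.5 and 37.1 regions per Mb, against 9.83 on chromosome 18.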
